A study of Mus musculus with 6 samples.

Results

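The collagen genes of the mouse cortex were compared between 6 and 16 months of age. Every gene whose symbol reads Col, a number, a and a second number was taken, which gave 44 of the 38355 genes listed, and all 44 were expressed above the filter on low counts. They are 11 fibrillar collagens, 8 basement membrane collagens, 9 collagens of the FACIT class (fibril-associated collagens with interrupted triple helices), 11 beaded filament, network and anchoring collagens, and 5 transmembrane and other collagens. RNA came from whole cortical hemispheres of C57BL/6 wild-type mice, with 3 brains at 6 months and 3 brains at 16 months and no other treatment, and polyadenylated RNA was sequenced. The housing protocol states 3 months for the younger mice, but the titles, the age labels and the study's text state 6 months, which was used here. The labels do not state whether the meninges were removed, so that the tissue may hold brain cells, vessels and the membranes on the surface of the cortex. In such tissue, fewer cells of a type and less RNA per cell cannot be told apart.

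Collagens are matrix proteins in which chains wind around each other in a triple helix. The helix needs a glycine at each step of the glycine-X-Y repeat. Fibrillar collagens have a long unbroken repeat and assemble into the cables of connective tissue, which in the brain lie mainly in the meninges and around larger vessels. Basement membrane collagens form sheets: collagen IV is a core component of the sheet that lies around brain capillaries, and collagens XV and XVIII are carried with it. In the brain, fibroblasts of the meninges and the vessel wall are known as a source of fibrillar collagens and collagen VI, whereas endothelial cells and pericytes make collagen IV. Some collagens, Col25a1 and Col19a1 among them, are known from neurons, so the gene family is wider than vessels and meninges.

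The difference between the cable-forming and the sheet-forming chains can be read in the coding sequence. In the GENCODE M21 transcripts on GRCm38 (mm10), the longest unbroken run of glycine-X-Y triplets had a median of 338 triplets in the 11 fibrillar genes, with a range from 216 to 344. In the 8 basement membrane genes the median was 41 triplets, with a range from 30 to 66. The transcripts of the fibrillar genes held between 21 and 33 exons of exactly 54 bases, and those of the basement membrane genes between 1 and 3. The following exons illustrate an unbroken and a broken repeat and were picked for this, so they are no separate evidence. Those of Col5a1 and Col6a1 were picked as 54-base exons inside the longest run, and that of Col4a1 for a break. The exons come from the fibrillar chain and a beaded filament chain that changed with age, and from a main chain of the vessel sheet. Exon 15 of Col5a1 lies at chr2:27965251-27965304 on the plus strand, exon 9 of Col6a1 at chr10:76719623-76719676 on the minus strand and exon 9 of Col4a1 at chr8:11244486-11244569 on the minus strand. They are printed 5′ to 3′ in the sense of the gene, and capitals mark the glycine codons.
Col5a1 exon 15: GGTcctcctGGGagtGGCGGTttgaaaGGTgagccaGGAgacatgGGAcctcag
Col6a1 exon 9: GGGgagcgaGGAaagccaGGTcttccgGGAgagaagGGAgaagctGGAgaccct
Col4a1 exon 9: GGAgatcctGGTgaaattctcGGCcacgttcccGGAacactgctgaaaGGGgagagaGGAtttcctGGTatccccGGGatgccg
All 5 steps between the 6 glycine codons of the Col6a1 exon are 3 codons long. In the Col5a1 exon 4 of the steps are 3 codons long, and the other 2 come from an extra glycine inside a triplet. In the Col4a1 exon 4 steps are 3 codons long and 3 are longer, which are breaks in the repeat.

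**Figure D1:**
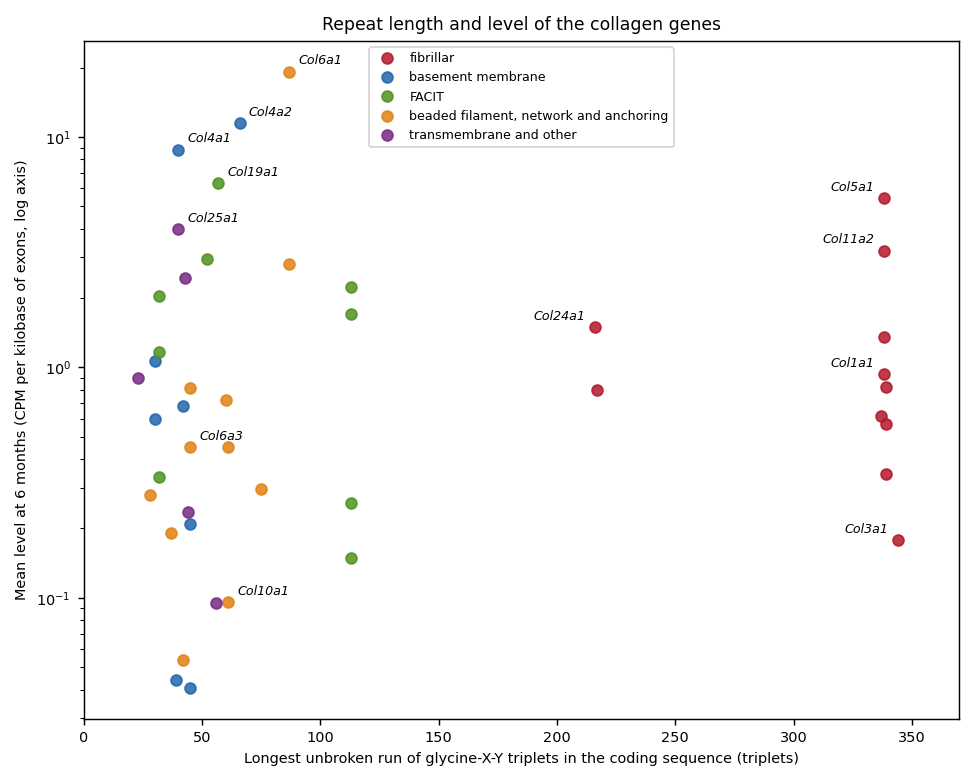
Each point is a collagen gene, coloured by class. The horizontal axis is the longest unbroken run of glycine-X-Y triplets and the vertical axis, which is logarithmic, is the mean level at 6 months in CPM per kilobase of exons. The fibrillar genes stand apart to the right, and the genes with the highest levels, Col6a1, Col4a2 and Col4a1, have short runs.

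Total counts on genes lay between 29797253 and 46519280 per sample. Levels are given as counts per 1000000 counts on genes (CPM) after TMM normalization, and levels of different genes are compared only as CPM per kilobase of merged exons. Across all 17120 genes tested, the quasi-likelihood test of edgeR called 286 genes at an adjusted P under 0.05, and the median log2 fold change was 0.0014. The 16-month samples varied more: their biological coefficient of variation was 8.73%, against 2.88% among the 6-month samples. Within the 16-month group, the deviation of a gene correlated across genes with its GC content, with r = 0.59 in replicate 1 and r = -0.58 in replicate 2 (a description, since genes are not independent replicates). Collagens are rich in GC, with a median of 55.1% against 49.7% over the genes tested. Of the 16-month samples, replicate 1 had the highest level in 26 of 44 collagen genes and the lowest in 9. Replicate 2 had the highest in 15 and the lowest in 21, and replicate 3 the highest in 3 and the lowest in 14. These counts were not made over all genes.

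At 6 months the order of levels per kilobase was led by Col6a1, a chain of the beaded filaments of collagen VI, with 19.2 ± 0.222 CPM per kilobase (SD, n = 3). The collagen IV chains Col4a2 and Col4a1 came next with 11.5 ± 0.354 and 8.82 ± 0.449. They were followed by the FACIT collagen Col19a1 with 6.32 ± 0.121, the fibrillar Col5a1 with 5.44 ± 0.276 and the transmembrane Col25a1 with 3.97 ± 0.0704. On this scale the means of these 6 genes differed by more than their spread at 6 months. The fibrillar chains that are abundant in skin and bone stood much lower: Col1a1 was at 0.936 ± 0.0150, Col1a2 at 0.820 ± 0.0311 and Col3a1 at 0.178 ± 0.0346 CPM per kilobase. Col5a1 thus stood above Col1a1 among the fibrillar chains of this tissue, also when the length of the longest transcript was used (5.5 against 1.03). The order of some genes depends on the length used. Per kilobase of the longest transcript, Col25a1 stood at 7.68, above Col5a1 with 5.5 and near Col19a1 with 8.0. On the same scale, Col1a2 stood at 1.90 and thus above Col1a1. The lowest levels were those of Col4a4 with 0.0407 ± 0.00857 and Col4a3 with 0.0438 ± 0.0133, chains of the kidney and inner ear basement membrane, with 12 to 27 reads per sample, and these neighbours did not differ beyond their spread. As shares of the reads on collagen genes, which also depend on gene length, the classes took at 6 months between 25.1% and 26.2% for the basement membrane, 21.6% and 22.7% for the fibrillar, 20.9% and 21.8% for the beaded filament, network and anchoring, 19.0% and 19.3% for the FACIT, and 11.6% and 12.3% for the transmembrane and other collagens.

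Of the 44 collagen genes, 4 were called between the ages (9.09%), where 1.67% of all genes were called. Col5a1, Col6a1 and Col6a3 fell with age (3 members lower, with 0.888% of all genes called lower) and Col6a4 rose (1 member higher, with 0.783% of all genes called higher). Over the whole family, 31 of 44 had a negative log2 fold change (70.5%, against 49.7% of all genes), and the median of the 44 was -0.17. Of the 40 that were not called, 28 had a negative value. In 18 of 44 (40.9%) every 16-month sample was below every 6-month sample, which was so in 11.5% of all genes, and Col6a4 alone was higher in every 16-month sample (12.2% of all genes). The unadjusted P was under 0.05 in 19 of 44 members, against 17.4% of all genes. Summed over the 44, the level was 636.2, 623.4 and 619.5 CPM at 6 months and 575.7, 531.4 and 543.0 CPM at 16 months, so that every 16-month sample was lower, with a change of the mean of -12.2%.

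**Figure D2:**
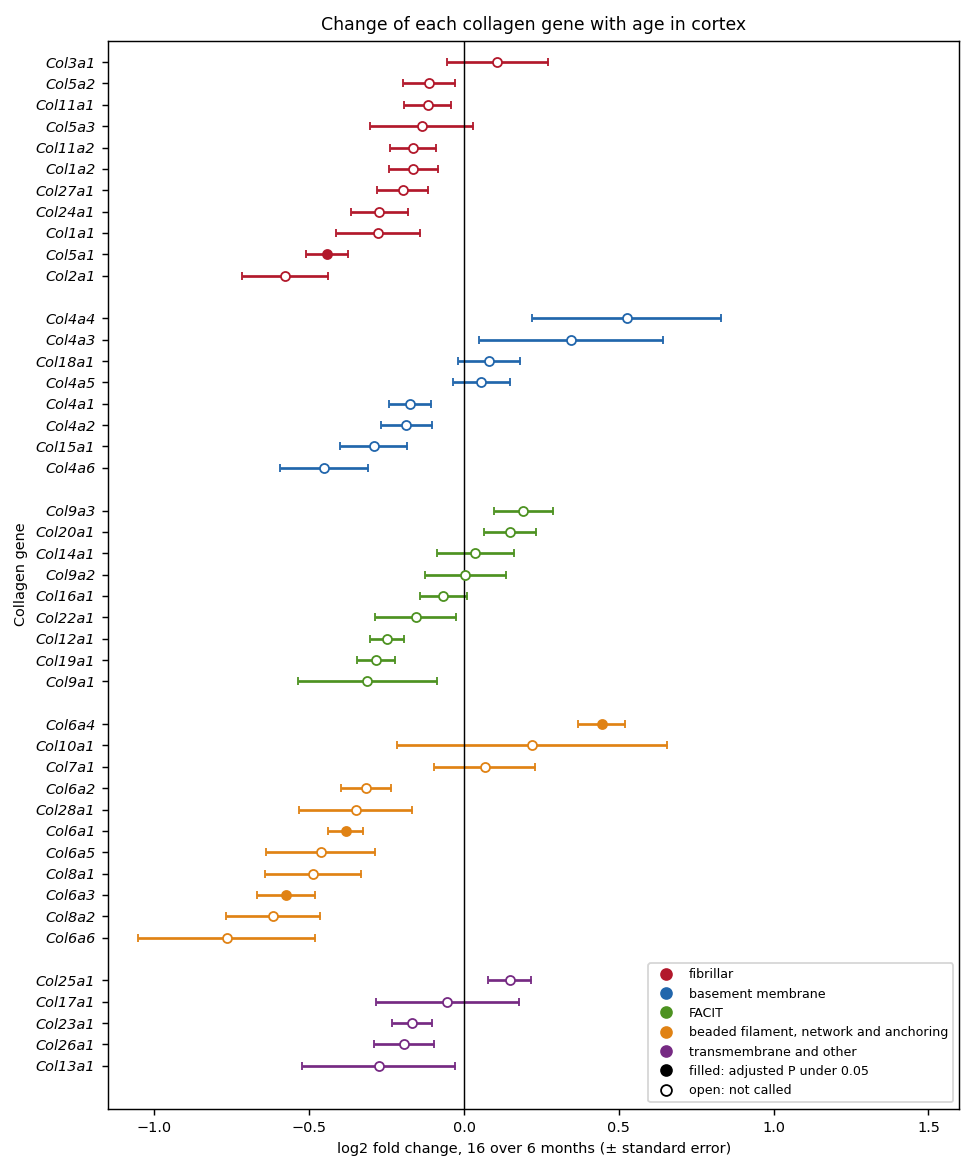
Each point is the log2 fold change of a collagen gene between 16 and 6 months with its standard error, grouped and coloured by class. Filled points passed an adjusted P under 0.05 (Col5a1, Col6a1, Col6a3 and Col6a4), and 31 of the 44 points lie left of 0.

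Among the fibrillar collagens, Col5a1 changed. This chain of collagen V is known to sit inside collagen I fibrils and to set their thickness (chromosome 2, 27886425 to 28039514, plus strand, GRCm38). It measured 46.9, 48.1 and 43.6 CPM in the 6-month replicates 1, 2 and 3, and 36.3, 31.6 and 34.0 CPM in the 16-month replicates. The ages did not overlap, and the lowest 6-month sample was above the highest 16-month sample. The log2 fold change was -0.44 ± 0.07 (SE), with a Benjamini-Hochberg adjusted P of 0.0129 in the quasi-likelihood test of edgeR. The overlapping genes on the opposite strand, 2810430I11Rik with 6 to 19 reads and Gm13372 with 4 to 9 reads per sample, could share reads with it, but Col5a1 itself had between 990 and 2198 reads.

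Its partner chain Col5a2 measured 5.76, 5.23 and 5.39 CPM at 6 months and 5.07, 5.14 and 5.01 CPM at 16 months, which was not called (log2 fold change -0.11, adjusted P = 0.533). Per kilobase, the ratio of Col5a1 to Col5a2 was 9.20, 10.4 and 9.14 at 6 months and 8.08, 6.95 and 7.66 at 16 months. Every 16-month ratio was thus below every 6-month ratio, with means of 9.57 ± 0.703 and 7.56 ± 0.575 (SD, n = 3 each).

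The collagen I and III chains, the bulk of connective tissue cables elsewhere in the body, were not called. Col1a1 measured 6.04, 6.23 and 6.15 CPM at 6 months and 6.33, 4.18 and 4.63 CPM at 16 months (log2 fold change -0.28 ± 0.14, adjusted P = 0.325). Its ages overlapped through 16-month replicate 1, which was the highest of all 6 samples. Col1a2 measured 9.81, 10.2 and 10.6 CPM at 6 months and 9.89, 8.68 and 8.70 CPM at 16 months (-0.16 ± 0.08, adjusted P = 0.323), again with 16-month replicate 1 inside the 6-month range. Col3a1 measured 2.03, 1.37 and 1.84 CPM at 6 months and 1.90, 2.07 and 1.79 CPM at 16 months (0.11 ± 0.16, adjusted P = 0.778), and was the only fibrillar gene with a positive value. Its exons share sequence with Gm47302, for which no value was used here.

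The remaining fibrillar chains are best known from cartilage and other skeletal tissue or are minor chains. Col2a1 measured 3.26, 3.07 and 3.27 CPM at 6 months and 2.59, 2.04 and 1.81 CPM at 16 months, with no overlap and the widest difference of the class (-0.58 ± 0.14), at an adjusted P of 0.0749. Col24a1 and Col27a1 also did not overlap between the ages, with log2 fold changes of -0.27 and -0.20 and adjusted P of 0.172 and 0.255. Col11a1 measured 17.0, 18.5 and 16.2 CPM at 6 months and 15.3, 17.0 and 15.2 CPM at 16 months (-0.12, adjusted P = 0.470), with overlap. The last 2, Col11a2 and Col5a3, had log2 fold changes of -0.16 and -0.14 and overlapped as well.

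As a class, 1 of 11 fibrillar collagens was called (1.67% of all genes), and 4 of 11 had an unadjusted P under 0.05 in edgeR (17.4%). Of the 11, 10 had a negative log2 fold change (49.7% of all genes). The ages did not overlap and 16 months was lower in 5 of 11 (11.5% of all genes). The count called was 0 without any of the 6-month samples or 16-month replicate 3 (0.277% to 0.335% of all genes). It was 3 without 16-month replicate 1 (5.73% of all genes) or replicate 2 (12.7%), and 7 with offsets for GC and length (14.3%). Their median was -0.16, against 0.0014 over all genes. Their summed level was 139.4, 141.7 and 133.5 CPM at 6 months and 121.7, 109.9 and 113.5 CPM at 16 months, so that the ages were apart, with a change of -16.8%. Without Col5a1 the sum went from 92.0 ± 1.90 to 81.1 ± 3.83 CPM (-11.9%), and the ages stayed apart.

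Of the basement membrane collagens, none of 8 was called by edgeR or by DESeq2 (which called 2.67% of all genes). In edgeR 4 of these 8 had an unadjusted P under 0.05, against 17.4% of all genes. Their log2 fold changes were negative in 4 and positive in 4, with a median of -0.06. The count called was 3 of 8 without 16-month replicate 1 (5.73% of all genes) and 3 of 8 with offsets for GC and length (14.3%). The collagen IV chains of the vessel sheet carried most of the class. Col4a1 measured 69.3, 65.5 and 62.7 CPM at 6 months and 63.0, 53.9 and 58.0 CPM at 16 months (-0.18 ± 0.07, adjusted P = 0.228). Col4a2 measured 78.3, 73.7 and 76.0 CPM at 6 months and 75.8, 59.2 and 65.4 CPM at 16 months (-0.19 ± 0.08, adjusted P = 0.279). In both genes 16-month replicate 1 lay within the 6-month range and the other 16-month samples lay below it.

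Col4a1 and Col4a2 are read in opposite directions from start sites 21 bases apart on chromosome 8, and their products are known to join in the same triple helix. Per kilobase, Col4a1 stood at 0.785, 0.789 and 0.731 of Col4a2 at 6 months and at 0.738, 0.807 and 0.787 at 16 months. The ranges overlapped, and the means of 0.768 ± 0.0322 and 0.777 ± 0.0356 differed by less than the spread between samples.

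The other basement membrane genes did not move together. Col15a1, a proteoglycan-type collagen below endothelium, measured 7.27, 6.00 and 7.08 CPM at 6 months and 6.21, 4.98 and 5.53 CPM at 16 months (-0.29 ± 0.11, adjusted P = 0.204). Col18a1, whose tail holds endostatin, measured 4.35, 4.27 and 3.93 CPM at 6 months and 4.83, 4.34 and 4.10 CPM at 16 months (0.08 ± 0.10, adjusted P = 0.728). Both overlapped between the ages, the former leaning down and the latter up. Col4a5 measured 4.86, 4.47 and 4.39 CPM at 6 months and 4.74, 5.01 and 4.57 CPM at 16 months (0.06, adjusted P = 0.803). Its neighbour Col4a6, whose start site lies 1343 bases away on the X chromosome, was the only gene of the class without overlap: 1.66, 1.70 and 1.65 CPM at 6 months and 1.18, 1.34 and 1.14 CPM at 16 months (-0.45 ± 0.14, adjusted P = 0.149). Col4a3 measured 0.491, 0.533 and 0.286 CPM at 6 months and 0.422, 0.638 and 0.586 CPM at 16 months, and with Col4a4 it had the widest standard errors of the class (0.30 and 0.31). Col4a3 shares exonic bases with C430014B12Rik on the opposite strand, which had 5 to 14 reads per sample against 12 to 23 reads of Col4a3, so its level is uncertain.

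Summed, the basement membrane collagens gave 166.8, 156.7 and 156.4 CPM at 6 months and 156.8, 130.3 and 139.8 CPM at 16 months, a change of -11.0% with overlap. Without Col4a1 and Col4a2 the sum went from 18.1 ± 0.845 to 17.2 ± 0.777 CPM. The mean of the summed level was lower at 16 months in both classes, the fibrillar class was apart between the ages and the basement membrane class was not. The basement membrane overlap rested on 16-month replicate 1 alone, with 156.8 CPM against 156.4 CPM in the lowest 6-month sample. Without Col5a1 the fibrillar sum was still apart, but its change of -11.9% was near the basement membrane change of -11.0%. No test of the difference between the classes was made.

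**Figure D3:**
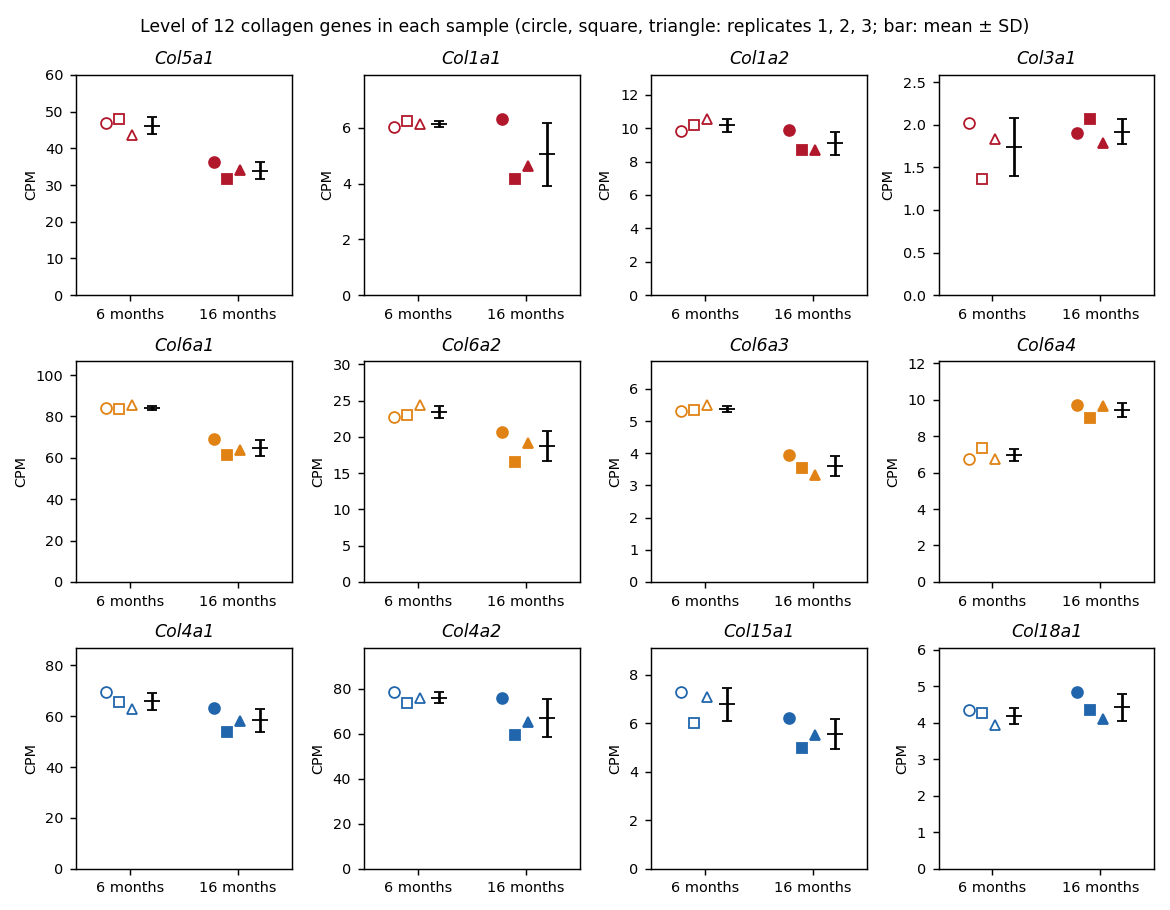
Level in CPM of 12 collagen genes in each sample, with an axis from 0 in each panel. Open symbols are 6-month and filled symbols 16-month samples (circle, square and triangle for replicates 1, 2 and 3), and the bar is the mean with SD. Col5a1, Col6a1, Col6a2 and Col6a3 separate the ages downward and Col6a4 upward, while in Col1a1 and Col4a2 the first 16-month replicate stands with the 6-month samples.

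Of the 6 genes of collagen VI, whose beaded filaments link cells to the surrounding matrix, Col6a1 and Col6a3 fell, Col6a4 rose and 3 were not called. Col6a1 (chromosome 10, 76708792 to 76726168, minus strand) measured 83.9, 83.4 and 85.3 CPM at 6 months and 68.9, 61.2 and 63.7 CPM at 16 months. Col6a3 (chromosome 1, 90765923 to 90843971, minus strand), the long chain of the filament, measured 5.31, 5.33 and 5.48 CPM at 6 months and 3.95, 3.54 and 3.34 CPM at 16 months. In both genes the 6-month samples lay close together and every 16-month sample was below them. Col6a1 fell by 0.38 on the log2 scale (SE 0.06, adjusted P = 0.0126) and Col6a3 by 0.57 (SE 0.09, adjusted P = 0.0192), both Benjamini-Hochberg adjusted in the quasi-likelihood test of edgeR. The remaining chain of the classical trimer, Col6a2, measured 22.8, 23.0 and 24.3 CPM at 6 months and 20.6, 16.5 and 19.1 CPM at 16 months. It did not overlap between the ages either, but was not called (-0.32 ± 0.08, adjusted P = 0.0924).

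The proportions of these chains were compared per kilobase. On this scale, the ratio of Col6a1 to Col6a3 was 43.2, 42.7 and 42.5 at 6 months and 47.6, 47.2 and 52.2 at 16 months, higher in every 16-month sample. The ratio of Col6a1 to Col6a2 was 6.85 ± 0.170 at 6 months and 6.58 ± 0.406 at 16 months and overlapped.

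Col6a4, Col6a5 and Col6a6 are alternative chains related to Col6a3 and lie in a row on chromosome 9, read in the same direction, with start sites 132558 and 136048 bases apart. Col6a4 (105989454 to 106096783, minus strand) measured 6.76, 7.37 and 6.77 CPM at 6 months and 9.68, 9.0 and 9.66 CPM at 16 months. It was the only called collagen that was higher at 16 months (log2 fold change 0.45 ± 0.08, adjusted P = 0.0224, edgeR with Benjamini-Hochberg adjustment). Its neighbours had negative values and were not called. Col6a5 measured 2.15, 1.67 and 1.57 CPM at 6 months and 1.18, 1.28 and 1.49 CPM at 16 months (-0.46 ± 0.18, adjusted P = 0.214). Col6a6 measured 0.597, 0.400 and 0.477 CPM at 6 months and 0.332, 0.319 and 0.234 CPM at 16 months (-0.77 ± 0.29, adjusted P = 0.208), from 8 to 28 reads per sample. Neither gene overlapped between the ages. Col6a4 shares exonic sequence with Gm36993 on the opposite strand, for which no value was used here, and since the strand setting of the counting is not stated by name, its reads cannot be assigned to the strand with certainty.

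Collagen VIII forms the hexagonal network of vessel walls and of the membrane below corneal endothelium. Col8a1 measured 3.48, 4.0 and 3.12 CPM at 6 months and 2.05, 3.06 and 2.40 CPM at 16 months, and Col8a2 3.20, 3.20 and 3.34 CPM at 6 months and 2.59, 1.63 and 2.11 CPM at 16 months. Both had no overlap between the ages but were not called, with log2 fold changes of -0.49 ± 0.16 and -0.62 ± 0.15 and adjusted P of 0.154 and 0.0785. Col28a1 did not overlap either (-0.35, adjusted P = 0.359). The anchoring fibril collagen Col7a1 and the growth plate collagen Col10a1 overlapped, with log2 fold changes of 0.07 and 0.22. The latter rested on 7 to 19 reads per sample.

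Within the beaded filament, network and anchoring class, 3 of 11 genes were called (1.67% of all genes), 8 of 11 were apart and lower at 16 months (11.5% of all genes) and 1 was apart and higher (12.2% of all genes). The count called was 0 without any of the 6-month samples or 16-month replicate 3 (0.277% to 0.335% of all genes). It was 5 and 6 without 16-month replicates 1 and 2 (5.73% and 12.7%), and 6 with offsets for GC and length (14.3%). The median log2 fold change was -0.38. The summed level was 133.1, 133.3 and 134.8 CPM at 6 months and 114.0, 101.0 and 106.9 CPM at 16 months (-19.8%), with the ages apart.

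The stretches before the start of a fibrillar and a filament chain that fell, Col5a1 and Col6a3, are shown because these genes were lower in the same samples. They are the 100 bases upstream of the RefSeq start on GRCm38.p6, at chr2:27886325-27886424 (plus strand) and chr1:90843972-90844071 (minus strand), where no annotated exon lies, and capitals mark the GC box GGGCGG.
Col5a1 upstream: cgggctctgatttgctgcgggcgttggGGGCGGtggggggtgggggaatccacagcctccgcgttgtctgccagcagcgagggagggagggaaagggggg
Col6a3 upstream: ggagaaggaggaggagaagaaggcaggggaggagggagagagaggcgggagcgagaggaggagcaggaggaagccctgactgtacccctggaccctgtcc
The GC box was found in the Col5a1 stretch and not in that of Col6a3. They hold 7 and 2 CpG pairs. Col6a1 also fell, and the same stretch before its start, over which an exon of Col6a1 lies, holds no GC box and 0 CpG pairs. Over windows from 250 bases before to 50 bases after the start, GGGCGG on either strand was found in 60.5% of 38 collagen windows (35 genes) and in 35.7% of all 32851 promoter windows. TATAAA was found in 13.2% and 13.6% and CCAAT in 34.2% and 37.4%, respectively. These are matches of letters and not measured binding. The collagen windows were also richer in GC, with a median of 59.8% against 52.7%, and the part of this in the GGGCGG matches was not tested.

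None of the 9 FACIT collagens, which attach to the surface of fibrils or to basement membranes, was called by edgeR. There 2 of 9 had an unadjusted P under 0.05 (17.4% of all genes), and DESeq2 called 2 of the 9 (2.67% of all genes). These are Col12a1 and Col19a1. Col12a1, which bridges fibrils, measured 30.4, 31.5 and 31.5 CPM at 6 months and 26.8, 26.5 and 25.4 CPM at 16 months (-0.25 ± 0.06, adjusted P = 0.0603 in edgeR). Col19a1 measured 43.6, 42.6 and 44.3 CPM at 6 months and 33.8, 38.4 and 35.2 CPM at 16 months (-0.28 ± 0.06, adjusted P = 0.0554 in edgeR). Both were apart between the ages with small spread at 6 months.

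The other FACIT genes overlapped between the ages. Col16a1 measured 21.9, 19.4 and 18.8 CPM at 6 months and 20, 18.1 and 19.3 CPM at 16 months (-0.07, adjusted P = 0.700). Col9a3, a chain of the collagen IX of cartilage, measured 9.24, 8.60 and 7.99 CPM at 6 months and 11, 8.87 and 9.66 CPM at 16 months (0.19, adjusted P = 0.336), and overlaps Tcfl5, which had 6 to 20 reads per sample. The remaining 5, Col9a1, Col9a2, Col14a1, Col20a1 and Col22a1, had log2 fold changes between -0.31 and 0.15. The median of the class was -0.07 and its sum went from 120.0 ± 2.45 to 108.1 ± 1.67 CPM.

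None of the 5 transmembrane and other collagens was called by edgeR or DESeq2. In edgeR 1 of 5 had an unadjusted P under 0.05 (17.4% of all genes). Col25a1, a neuronal collagen known from amyloid plaques, measured 51.2, 50.7 and 52.4 CPM at 6 months and 52.2, 62.9 and 56.0 CPM at 16 months. Among the 6 collagens with the highest level per kilobase it was the only one with a higher mean at 16 months, but its ages overlapped (0.15 ± 0.07, adjusted P = 0.312). Col23a1 measured 14.3, 13.5 and 14.3 CPM at 6 months and 12.5, 12.8 and 12.3 CPM at 16 months (-0.17 ± 0.06, adjusted P = 0.217), without overlap. Col26a1 also had no overlap (-0.19, adjusted P = 0.336), whereas Col13a1 (-0.28) and Col17a1 (-0.05) overlapped. The sum of the class was 74.5 ± 1.59 CPM at 6 months and 77.4 ± 4.54 CPM at 16 months, so that its share of all collagen CPM lay between 11.6% and 12.3% at 6 months and between 12.8% and 15.5% at 16 months.

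**Figure D4:**
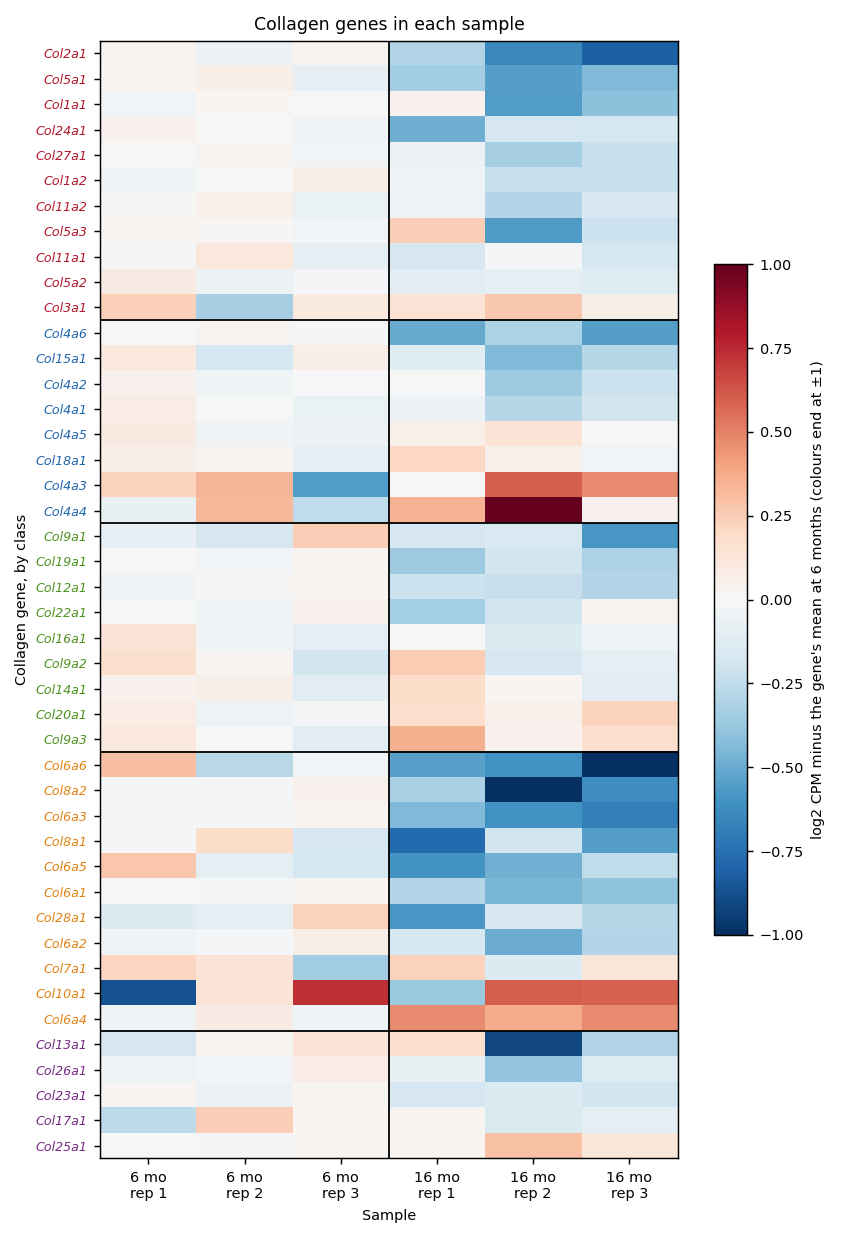
Colour gives the log2 CPM of each of the 44 collagen genes in each of the 6 samples, minus the mean of that gene at 6 months, with colours ending at a difference of 1. Blue, for lower values, prevails in the 16-month columns of the fibrillar and of the beaded filament, network and anchoring blocks, the basement membrane block is mixed, and the first 16-month column is paler than the other 16-month columns for Col1a1, Col4a1 and Col4a2.

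The 4 calls depended on which samples were used. They were kept without 16-month replicate 1 or 2, with adjusted P in edgeR of 0.000189 and 0.00378 for Col5a1, 0.000103 and 0.00341 for Col6a1, 0.00217 and 0.0101 for Col6a3, and 0.00726 and 0.00593 for Col6a4. When any of the 6-month samples or 16-month replicate 3 was left out, no collagen gene was called by edgeR. Then 0.318%, 0.328% and 0.277% of all genes were called without 6-month replicates 1, 2 and 3 and 0.335% without 16-month replicate 3. An unadjusted P under 0.05 in edgeR was found in 11 to 16 of the 44 collagens, against 10.6% to 12.5% of all genes. The adjusted P of the 4 genes in edgeR lay between 0.0636 and 0.155 in these fits. Their direction held in all 6 fits that left out a sample, with log2 fold changes from -0.49 to -0.39 for Col5a1, from -0.43 to -0.34 for Col6a1, from -0.65 to -0.52 for Col6a3 and from 0.42 to 0.48 for Col6a4. Without 16-month replicate 1, 14 collagens were called (5.73% of all genes), and without replicate 2, 11 were called (12.7% of all genes). With offsets that remove trends with GC and gene length, 20 of 44 were called, 19 of them lower, where 14.3% of all genes were called and 6.89% were called lower. Among the added genes were Col1a1 (-0.33, adjusted P = 0.0277), Col4a1 (-0.23, adjusted P = 0.00161) and Col4a2 (-0.25, adjusted P = 0.000267).

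The machinery that makes and modifies collagen was measured beside the chains. Of 18 enzymes and chaperones of synthesis none was called by edgeR or DESeq2. An unadjusted P under 0.05 in edgeR was found in 4 of them (17.4% of all genes), and their median log2 fold change was 0.03. P4hb, the shared subunit of prolyl hydroxylase, measured 103.9, 104.3 and 108.2 CPM at 6 months and 118.7, 119.1 and 117.1 CPM at 16 months, higher in every sample but not called (0.17, adjusted P = 0.126). Mia3, which helps procollagen leave the endoplasmic reticulum, had a log2 fold change of 0.04. Of 14 genes of procollagen processing and cross-linking 13 were tested and none was called by edgeR or DESeq2. Of these 13, 3 had an unadjusted P under 0.05 in edgeR (17.4% of all genes). Their median was -0.01, and Pxdn, which cross-links collagen IV, and the procollagen protease Bmp1 had log2 fold changes of -0.02 and -0.01. The summed level of the synthesis list was 561.4 ± 3.26 CPM at 6 months and 587.0 ± 2.46 CPM at 16 months, higher where the collagen sum was lower.

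The partners of collagen in the matrix differed by kind. None of the 16 laminins and other basement membrane components was called by either tool. In edgeR 2 had an unadjusted P under 0.05 (17.4% of all genes), and the median was -0.03. The abundant Agrn and Sparc had log2 fold changes of -0.05 and -0.03. Of 11 proteins that bind collagen fibrils 10 were tested, and 2 fell, where 0.888% of all genes were called lower. They were the small proteoglycans Fmod (16.0, 14.3 and 14.6 CPM at 6 months and 10.4, 9.03 and 11.4 CPM at 16 months) and Ogn (12.0, 11.8 and 12.5 CPM and then 7.06, 9.35 and 7.85 CPM). Fmod had a log2 fold change of -0.54 with an adjusted P of 0.0211, and Ogn of -0.58 with an adjusted P of 0.0204. Dcn, which coats collagen fibrils, was apart but not called (-0.23, adjusted P = 0.102), and Fn1 had a log2 fold change of 0.03. Without any of the 6-month samples none of this list was called by edgeR (0.277% to 0.328% of all genes). Without 16-month replicate 3, 1 was called (0.335% of all genes). The median of this list was -0.21. Of 9 collagen receptors 7 were tested, none was called by either tool, none had an unadjusted P under 0.05, and Itgb1 and Ddr1 had log2 fold changes of -0.04 and 0.03.

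Markers of the cells that could carry collagen RNA moved as follows. Of 12 fibroblast markers 3 fell (0.888% of all genes were called lower), namely Igf2 (-0.46, adjusted P = 0.0025), Slc47a1 (-0.56, adjusted P = 0.0377) and Slc13a4 (-0.42, adjusted P = 0.0469). Without any of the 6-month samples or without 16-month replicate 3, 1 of the 12 was called (0.277% to 0.335% of all genes). With thinned counts 1 was called as well (1.55% of all genes). Without 16-month replicates 1 and 2, 5 and 6 were called (5.73% and 12.7% of all genes). All 12 had negative values with a median of -0.33, and Dcn is also on the list of collagen-binding proteins. Their summed level was 135.3, 140.3 and 137.5 CPM at 6 months and 107.4, 107.6 and 111.4 CPM at 16 months (-21.0%). None of 10 pericyte, 6 smooth muscle and 10 endothelial markers was called by edgeR or DESeq2. In edgeR 1, 0 and 3 of them had an unadjusted P under 0.05 (17.4% of all genes). Their sums changed by -6.11%, -7.07% and 3.12%. The pericyte sum was 173.3, 165.1 and 169.8 CPM at 6 months and 157.6, 161.9 and 157.7 CPM at 16 months, and the smooth muscle sum 19.1, 18.5 and 19.0 CPM at 6 months and 16.9, 17.3 and 18.4 CPM at 16 months. The sums of both lists were thus lower in every 16-month sample, as was that of the fibroblast markers. The endothelial sum was higher in every 16-month sample. Gene by gene these lists moved less than the fibroblast list. The median log2 fold change was -0.02 for pericyte (6 of 10 negative) and -0.09 for smooth muscle markers (5 of 6 negative). For endothelial markers it was 0.01 (4 of 10 negative), where 49.7% of all genes were negative. Of the pericyte markers 1 was apart and lower and 1 apart and higher. No marker of these lists was at 0 in all samples. The part of fibroblast, pericyte and smooth muscle content in the lower collagen levels was not tested.

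**Figure D5:**
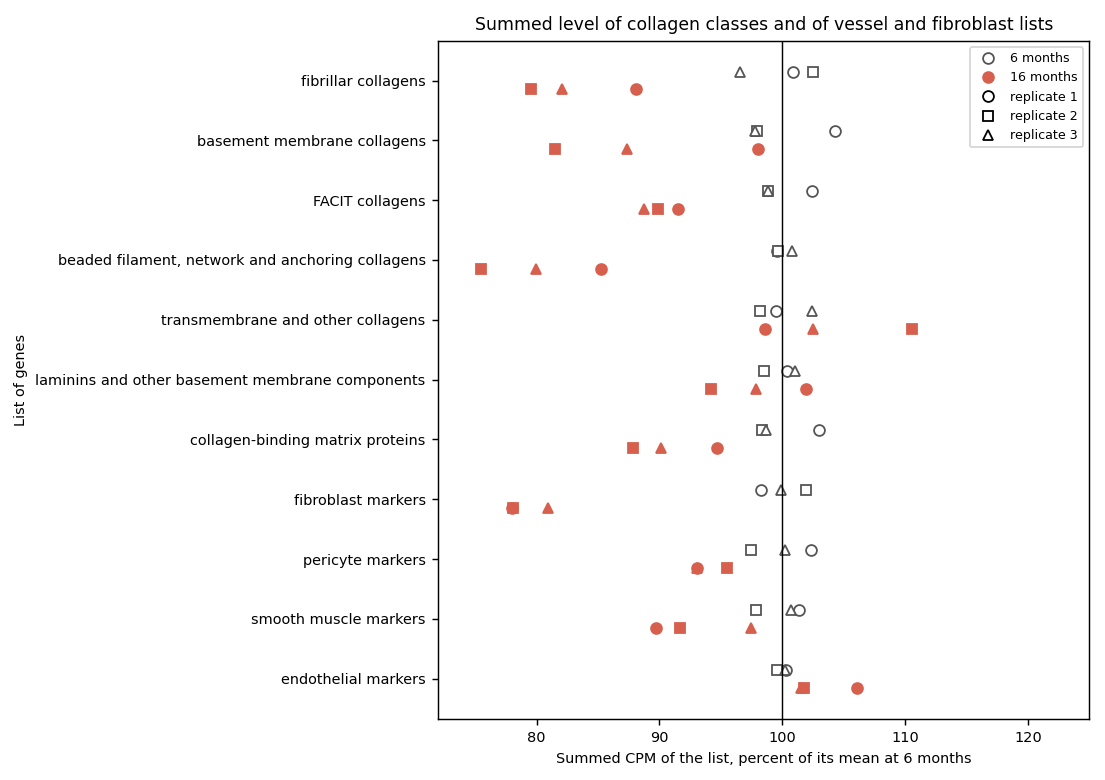
Summed CPM of each list in each sample, as a percentage of the 6-month mean of that list (open symbols 6 months, filled symbols 16 months, symbol shape for the replicate). The 16-month samples lie left of all 6-month samples for the fibrillar, the FACIT and the beaded filament, network and anchoring collagens and for the collagen-binding, fibroblast, pericyte and smooth muscle lists. They overlap for the basement membrane and the transmembrane and other collagens and for the laminin list, and lie to the right for the endothelial markers.

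Marker lists of tissue next to the cortex also differed between the ages. In these lists, 1 of 8 choroid plexus genes tested rose (Ttr, 1.00), 4 of 7 thalamus genes rose and 3 of 6 dentate gyrus genes rose, where 0.783% of all genes were called higher, and their sums changed by 46.2%, 29.5% and 11.4%. The summed choroid plexus level lay between 20.6 and 21.5 CPM at 6 months and between 28.9 and 32.7 CPM at 16 months, the thalamus level between 94.5 and 98.8 and between 120.0 and 132.4 CPM, and the dentate gyrus level between 167.3 and 172.6 and between 182.6 and 199.0 CPM. Without any of the 6-month samples or without 16-month replicate 3, the choroid plexus call was kept. In these fits 2 thalamus and 2 dentate gyrus genes were called (0.277% to 0.335% of all genes). Of 5 red blood cell genes 2 rose (0.783% of all genes were called higher), and 1 was called in those same fits. The sum of the 5 went from 29.3 ± 1.79 to 46.9 ± 2.93 CPM. Of a list of 9 neuronal and glial genes of brain tissue 1 was called, the astrocyte gene Gfap (-0.47). In all, 0.888% of genes were called lower, and the sum of the 9 changed by -2.29%. The part of these differences in the collagen values was not tested.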

How the data were processed

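RNA of 6 cortical samples (3 brains per age, none pooled) was sequenced as paired ends on a HiSeq2000. The deposited values are raw counts of reads per Ensembl gene, made by the authors without normalization. The study's text describes trimming with fastq-mcf, 2-pass alignment with STAR to mm10 and counting with HTSeq, whereas the submitters' processing notes list CASAVA 1.8.2, STAR 2.3.0e and featureCounts 1.5.0-p1. The annotation release is not given in the sources used here. No strand setting is named, and the study's text says that defaults were used where nothing else was stated.

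Samples were grouped by the age labels. Of 38355 genes, 36602 were matched by identifier to GENCODE M21, which gave symbols, positions, exon lengths and GC content. Counts were tested with edgeR 4.0.16 in R 4.3.3 (TMM, filterByExpr, quasi-likelihood test, no covariate), adjusted by Benjamini-Hochberg over all 17120 genes tested, at 0.05. On simulated counts of 17120 genes with 200 changed, 91% of the genes with a log2 fold change of 1 and 71% of those with 0.5 were recovered, with 4.14% false calls. The simulation gave all genes at both ages 1 coefficient of variation (6.40%) and no trend with GC content. In the samples the coefficient was 2.88% at 6 months and 8.73% at 16 months, so these rates may not hold for the samples. Near-identical copies were searched with blastn 2.17.0 (97% identity, at least 100 bases), and matplotlib 3.10.9 drew the plots. The alternatives were DESeq2 1.42.0, other normalizations and filters, other forms of the fit, thinned counts, offsets for GC content and length, a replicate block, and each sample left out.

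Values per sample were given for each collagen called and for a list of main collagens, called or not, and other members were named to account for the family. Of the pathway lists the called members and the 2 with the highest mean CPM were named. The members and lists were chosen with earlier results of these data known, and no list was tested as a set.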

Additional observations from a re-analysis of the deposited data

How the results depend on the processing

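The number of collagens called, 4 in the reported analysis (1.67% of all genes called), was 7 with DESeq2 (2.67%). It was 9 without the filter on low counts (2.35%) and 20 with offsets for GC content and length (14.3%). When a sample was left out it was 0 to 14 (0.277% to 12.7%). The number of all genes called, 286, became 470 with DESeq2, 648 without the filter, 2451 with the offsets and 48 to 2211 when a sample was left out. The number called in the other collagen classes and pathway lists, whose sizes are given above, was 5 (1.67% of all genes called). It became 8 with DESeq2 (2.67%), 10 without the filter (2.35%) and 8 with upper quartile normalization (1.7%). With the offsets it was 24 (14.3%), and when a sample was left out 0 to 15 (0.277% to 12.7%). The cause of these differences was not tested. The remaining settings (DESeq2 without independent filtering, DESeq2 size factors, a minimum of 10 counts in every sample, robust and newer quasi-likelihood fits, thinning to the smallest total) kept all 3 counts within 1.5 times. Col5a1, Col6a1, Col6a3 and Col6a4 were called in all 12 settings that kept every sample, and no value reversed its direction among called genes. The median log2 fold change lay between -0.23 and -0.14 for the fibrillar and between -0.11 and -0.01 for the basement membrane collagens over all alternatives.

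The samples are different mice, and the titles number them without saying whether same-numbered samples of both ages were prepared together. Deviations of same-numbered samples correlated with r = 0.18, 0.096 and 0.035. Those of differently numbered samples correlated with r from -0.13 to 0.038. With a replicate block in the fit, 783 genes (4.57%), 10 collagens and 12 genes of the other classes and lists were called, and with the block and the offsets together 3283 genes (19.2%), 21 collagens and 26 genes of the other classes and lists. Same-numbered samples did not all correlate above 0.1, so no pairing was used.

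With 3 samples per age an exact permutation test cannot give a P under 0.1. Genes with few reads, such as Col4a3, Col4a4, Col6a6 and Col10a1, had standard errors from 0.29 to 0.44 on the log2 scale, so that changes of the size seen in Col5a1 were not detectable for them. Per kilobase of the longest transcript in place of merged exons (chosen after seeing the data), the 6-month level of Col4a1 was 9.95 and that of Col1a2 1.90.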
